A study of Mus musculus with 4 samples.

Results

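Netrin signalling was examined through 7 mouse genes chosen by name, out of 21900 protein-coding genes: the ligand gene Ntn1, the attractant receptor gene Dcc, its relative Neo1, and the 4 UNC-5 receptor genes Unc5a, Unc5b, Unc5c and Unc5d. The question here was where binding sites of Sp9, a zinc finger transcription factor of the ganglionic eminences and of young striatal neurons, lay relative to these genes at 2 stages of development. Sp9 binding had been mapped by ChIP-seq, the sequencing of DNA recovered with an antibody to Sp9, in basal ganglia dissected from wild-type CD1 embryos, with 1 ChIP library and 1 input library (no antibody) at embryonic day 13.5 (E13.5) and the same at embryonic day 16.5 (E16.5). No allele or treatment is named in the labels, and the sources used here do not give whether embryos were pooled. Each ChIP library has a deposited list of peaks, called against input per the file names, that gives for every gene the signed distance in base pairs (bp) from its transcription start site (TSS) to each peak assigned to it, on the mm9 build. A negative distance lies upstream of the TSS and a positive one downstream of the TSS, where a peak can fall inside the gene. Whether a downstream peak lay inside or beyond its gene was not examined. The E13.5 list is also called the earlier list and the E16.5 list the later one.

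Netrin-1 is a secreted guidance cue of the developing nervous system. DCC and neogenin, the product of Neo1, are large transmembrane receptors of the immunoglobulin superfamily that bind netrin-1, and DCC is best known for turning growing axons towards it. The UNC-5 receptors bind the same ligand and mediate repulsion, alone or together with DCC, and receptors of both kinds are also dependence receptors that can trigger cell death when the ligand is missing. In the ventral forebrain, netrin-1 is known to act on striatal, corticofugal and thalamocortical axons and on migrating neurons.

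Of the 7 genes, 6 had assigned peaks at both stages, and Ntn1 had none at either. The E13.5 list held 28 peaks of these genes among 5847 in all (0.479%), and the E16.5 list held 22 among 6022 (0.365%). Among all protein-coding genes, 20.7% had an assigned peak in the earlier list, 23.6% had one in the later, and 16.3% had one in both. Most peaks of the netrin genes were far from the start site: 22 of 28 in the earlier list and 17 of 22 in the later lay more than 100 kb away, with median distances of 322 and 303 kb. Dcc carried much of this: without it 8 of 13 and 9 of 14 peaks lay beyond 100 kb, with a median of 185 kb in each list. Over all assignments of a peak to a gene, 56.4% (earlier) and 45.9% (later) lay beyond 100 kb, with medians of 132 and 80.3 kb.

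The authors gave a peak that lay outside the immediate surroundings of a TSS to the genes flanking it, up to 1000000 bp away, so a gene in a gene-poor region can collect more peaks. This spacing was not separated from the peak counts, and a peak assigned to a gene is not shown to act on it. Peak heights, widths and read totals are not part of the lists, so the depth of sequencing is unknown and single peaks could not be compared in strength. Each stage rests on 1 ChIP library without a replicate, and no test between the stages was possible. All 16 genes of a list of ganglionic eminence and striatal genes had an assigned peak at each stage, against 3 of 8 pallial glutamatergic genes in the earlier list and 4 of 8 in the later. Genes of endothelium, microglia and blood had one in 4 of 8 cases at each stage. The shares of all protein-coding genes with an assigned peak were 20.7% in the earlier list and 23.6% in the later. Within 50 kb the earlier list held 14 of the 16 ganglionic eminence and striatal genes, 0 of 8 pallial genes and 2 of 8 genes of endothelium, microglia and blood (Cdh5 and Ptprc), against 10.8% of all protein-coding genes. In the later list it was 16 of 16, 1 of 8 (Emx2) and 0 of 8, against 15.1%. All 3 lists were chosen with earlier results of these data known, and the first includes Sp9 itself, so the counts are descriptions. Binding is not expression, and these counts do not measure which cells were present.

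The sequences in which the data bear most directly on a promoter are those of Neo1 and Unc5a, the only netrin genes whose TSS had a peak closer than 1 kb, at E16.5 in both cases (2 of 7 genes, against 9.42% of all protein-coding genes). Unc5b, which had no peak there at either stage, is shown for comparison. Each line gives the 250 bases before a start site from RefSeq (build GRCm38.p6, 5′ to 3′ on the gene's strand), and capitals mark the GC box GGGCGG or its reverse complement CCGCCC, the core of the site that SP factors are known to bind. The windows are chr9:59036442-59036691 on the minus strand for Neo1, chr13:54949161-54949410 on the plus strand for Unc5a and chr10:60831582-60831831 on the minus strand for Unc5b.
Neo1: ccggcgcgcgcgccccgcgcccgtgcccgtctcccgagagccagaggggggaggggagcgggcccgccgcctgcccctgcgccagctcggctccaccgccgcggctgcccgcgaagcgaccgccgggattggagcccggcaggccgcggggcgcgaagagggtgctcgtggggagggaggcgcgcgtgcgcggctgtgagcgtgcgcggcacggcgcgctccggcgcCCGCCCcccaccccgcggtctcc
Unc5a: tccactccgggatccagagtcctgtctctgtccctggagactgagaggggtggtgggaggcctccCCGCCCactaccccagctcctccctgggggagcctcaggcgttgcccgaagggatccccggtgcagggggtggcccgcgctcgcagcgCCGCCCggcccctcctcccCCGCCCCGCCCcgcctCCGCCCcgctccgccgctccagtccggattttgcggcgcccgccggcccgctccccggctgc
Unc5b: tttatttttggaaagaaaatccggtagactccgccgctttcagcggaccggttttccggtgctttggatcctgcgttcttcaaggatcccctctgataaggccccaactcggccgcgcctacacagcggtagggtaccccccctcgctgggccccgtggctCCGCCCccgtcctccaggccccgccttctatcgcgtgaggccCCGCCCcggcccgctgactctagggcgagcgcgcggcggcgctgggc

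The Unc5a window held 5 GC boxes, of which a neighbouring pair overlapped by their last and first base. The Unc5b window held 2 and the Neo1 window 1, all of them as CCGCCC on the strand shown. Unc5c, also without a promoter peak, had 0. Counted on both strands, 42.6% of 21263 windows of this length before start sites of protein-coding genes held at least 1 GC box. Over all 32851 windows, which include those of other gene types, 32.7% held at least 1 and 1.93% held as many as Unc5a. The related motif GGGTGG, or CCACCC on the other strand, matched 2 times at Unc5a, 1 time at Neo1 and at Unc5c and 0 times at Unc5b, with no match overlapping a GC box, against 30.2% of protein-coding windows with at least 1. The windows were rich in G and C, with 83.2% at Neo1, 76.8% at Unc5a, 66.8% at Unc5b and 71.2% at Unc5c, against a median of 52.4% over all windows. Thus the windows of both genes with a promoter peak held the motif, and so did that of Unc5b without one. The RefSeq start sites may differ from those the authors measured from. The whole Unc5a window lies inside the span of the RefSeq gene, which therefore has a start site farther upstream. Whether the Unc5a peak lies in this window at all is not known. A match to the motif is a description of the letters only.

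**Figure D1:**
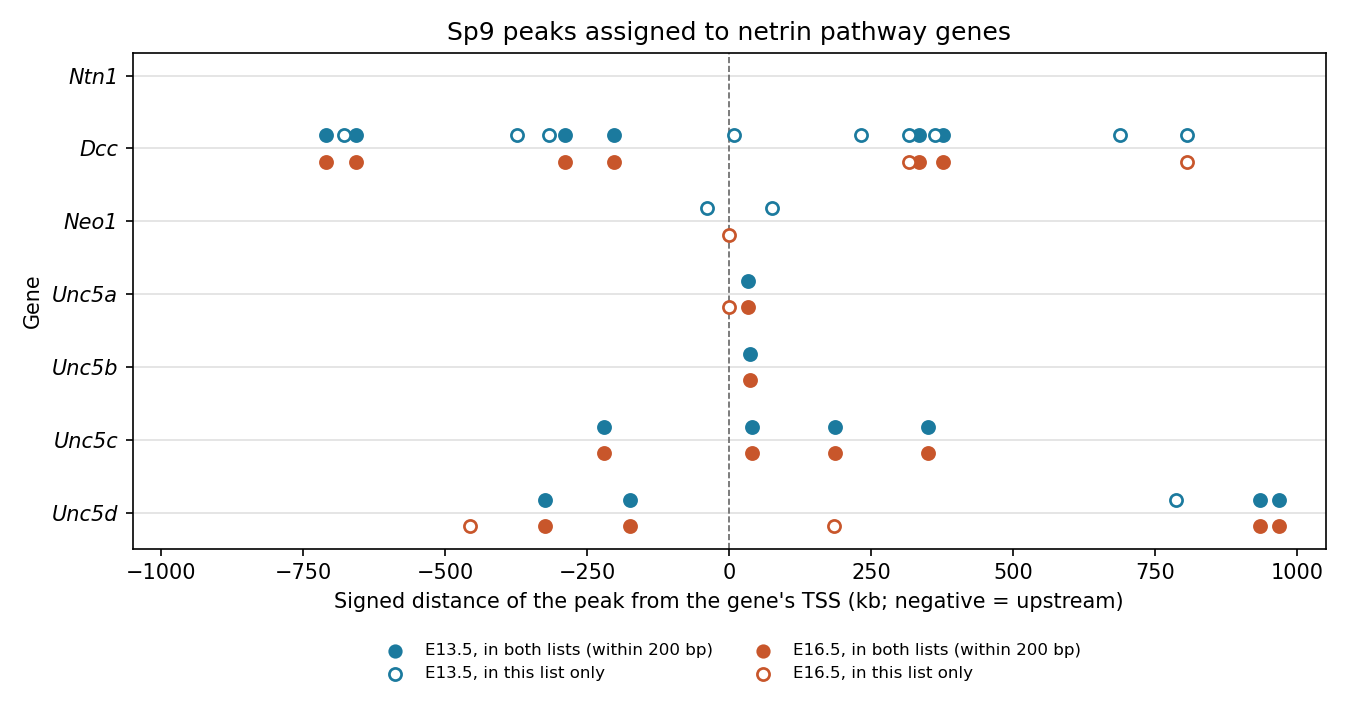
Every Sp9 peak assigned to the 7 genes, by its signed distance in kb from the gene's TSS (x axis; negative is upstream), with E13.5 peaks above and E16.5 peaks below each gene's line. Filled points had a peak of the same gene within 200 bp in the other list and open points did not; Ntn1 has no point, all 4 Unc5c peaks are filled at both stages, and Dcc has 9 open points at E13.5.

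Ntn1, which encodes the secreted ligand netrin-1, had no assigned peak in either list. It was the 1 gene of the 7 without a peak. Over all protein-coding genes, 20.7% had one in the earlier list and 23.6% in the later, so most had none in a given list. A gene without an assigned peak had none past the authors' threshold in the region given to it, which does not exclude weaker binding.

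Dcc, the receptor gene of attraction, had the most peaks of the 7 genes, with 15 in the earlier list and 8 in the later. At E13.5, 15 of the 21900 protein-coding genes (0.0685%) had at least as many, Dcc among them, and at E16.5 83 genes (0.379%). Upstream of the TSS at E13.5 the peaks lay at 709073, 678617, 656485, 374140, 318142, 289068 and 203502 bp. Downstream they lay at 7612, 232677, 315840, 334770, 361760, 375516, 687910 and 804878 bp. Thus 14 of the 15 were more than 100 kb from the start site, on both sides of it, and a single peak lay near the 5′ end of the gene.

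At E16.5 the upstream peaks of Dcc lay at 709052, 656523, 288970 and 203512 bp, and the downstream peaks at 316660, 334741, 375452 and 805641 bp. A site is called recurring here if both lists place a peak of one and the same gene there, to within 200 bp. On that definition Dcc kept 6 of its 15 earlier peaks (95% Wilson interval 19.8 to 64.3%), against 57.9% of all E13.5 peaks and 56.2% (54.3 to 58.2) of those more than 100 kb from the nearest TSS. The interval covers counting error over peaks only, and peaks of 1 gene are not independent. In the other direction 6 of the 8 E16.5 peaks of Dcc recurred (40.9 to 92.9%), against 56.2% of all E16.5 peaks and 71.9% of the distant ones.

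The recurring Dcc sites were those 709073, 656485, 289068 and 203502 bp upstream and 334770 and 375516 bp downstream, whose distances in the later list differed by 21, 38, 98, 10, 29 and 64 bp in that order. A further pair of sites came close: the E13.5 peaks at 315840 and 804878 bp downstream had E16.5 peaks 820 and 763 bp away, too far to be counted. The remaining 7 E13.5 peaks, at 678617, 374140 and 318142 bp upstream and 7612, 232677, 361760 and 687910 bp downstream, had no E16.5 peak of Dcc within 1000 bp. Among these was the peak 7612 bp from the TSS, the closest of all, and the nearest E16.5 peak of Dcc was 203512 bp away. No E16.5 peak of Dcc lay in a place without an E13.5 peak within 1000 bp. The lists do not show whether the missing E16.5 peaks had no signal or fell below the threshold.

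The Dcc peaks were spread unevenly. At E13.5, 4 of them followed each other at gaps of 18.9, 27.0 and 13.8 kb downstream of the TSS, and 3 at gaps of 30.5 and 22.1 kb at the upstream end, while the gap around the TSS was 211 kb upstream of the peak at 7612 bp and 225 kb downstream of it. At E16.5 the first of these groups held 3 peaks at gaps of 18.1 and 40.7 kb, and the second 2 peaks 52.5 kb apart. The peak numbers assigned to Dcc ran without a break at each stage, so no other peak number fell between them. The TSS of Mex3c, the flanking gene upstream in the authors' assignment, was 1222 kb from that of Dcc by the distances of shared peaks, and the TSS of Mbd2, the flanking gene downstream, was 1783 kb away. Mex3c shared 6 of the earlier and 3 of the later Dcc peaks, and 5 of these 9 lay nearer to Mex3c. Counting a peak only for its nearest TSS left Dcc with 12 earlier and 6 later peaks.

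Of the other protein-coding genes, 7 came within a summed difference of 3 from Dcc in the counts of E13.5 peaks, E16.5 peaks and recurring peaks. The nearest were Prkd1 with 14, 9 and 6, Robo1 with 15, 10 and 6, and Epha4 with 14, 7 and 6, each at a summed difference of 2. This likeness rests on 3 counts from the 2 lists, with the median distance used only to order ties.

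Neo1, which encodes the DCC relative neogenin, a receptor also for repulsive guidance molecules, had 2 peaks in the earlier list and 1 in the later. The earlier peaks lay 39383 bp upstream and 75071 bp downstream, and the E16.5 peak lay 32 bp upstream. None recurred: the listed peaks of Neo1 lay away from the start site at E13.5 and at the promoter at E16.5. A peak absent from 1 list may have fallen below its threshold. The peak 39383 bp upstream was shared with Gm7589, 70386 bp from the TSS of that gene, and the peak 75071 bp downstream with the channel gene Hcn4, at 137858 bp. The E16.5 promoter peak was assigned to Neo1 alone.

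**Figure D2:**
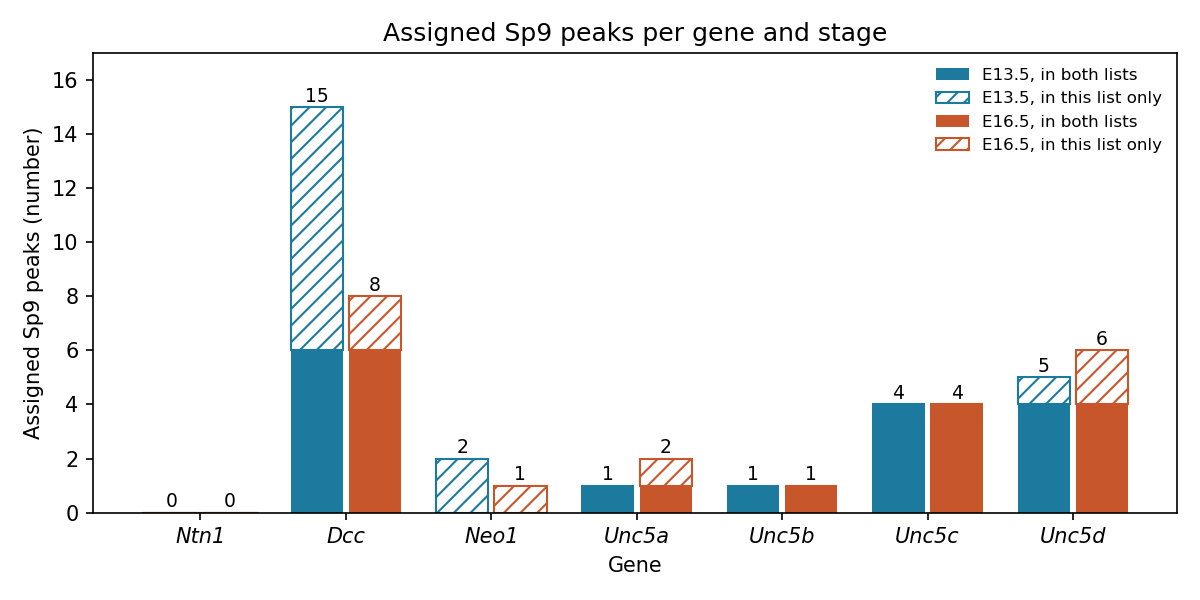
Number of assigned Sp9 peaks (y axis) for each gene and stage, 1 library per stage. The solid part of a bar counts peaks with a peak of the same gene within 200 bp in the other list and the hatched part the rest; Dcc has 15 earlier and 8 later peaks, with 6 in both lists.

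The 4 UNC-5 receptor genes together had 11 peaks at E13.5, of which 10 recurred (62.3 to 98.4%), and 13 at E16.5, of which 10 recurred (49.7 to 91.8%). Of these sites 4 belong to Unc5c and 4 to Unc5d, so they are not independent, and 8 of the 11 and 9 of the 13 peaks lay more than 100 kb from the TSS. Over the lists, 57.9% of the earlier and 56.2% of the later peaks recurred, and 56.2% and 71.9% of those more than 100 kb from the nearest TSS of any gene. The UNC-5 distances are from the gene's own TSS instead. For example, the E13.5 peak 220450 bp upstream of Unc5c lay 32759 bp from the TSS of Pdha2. No test was made of the difference between these genes and Dcc or the other peaks. Without Dcc, 10 of the 13 E13.5 peaks of the netrin genes recurred (49.7 to 91.8%), and with Dcc 16 of 28 (39.1 to 73.5%), so Dcc supplied 9 of the 12 that did not. At E16.5, 16 of the 22 peaks of all netrin genes recurred (51.8 to 86.8%).

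Downstream of the Unc5a TSS, the earlier list had a peak at 32093 bp and the later list the same site at 32073 bp. The E16.5 list added a peak 169 bp upstream of the TSS, the second promoter peak of the set. The downstream peak was shared with Hk3, a hexokinase gene whose TSS is 72.0 kb from that of Unc5a, and lay closer to Unc5a. The promoter peak was assigned to Unc5a alone.

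Unc5b, a receptor gene known also from blood vessels, had the same single site at both stages. Its downstream peak lay at 37055 bp in the earlier list and at 37028 bp in the later. It was shared with the nucleoside transporter gene Slc29a3, whose TSS it approached to 41744 and 41771 bp from the other side, so it lay at nearly equal distances from both genes.

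Unc5c, whose loss is known to disturb cerebellar migration, had 4 peaks at each stage, and all 4 recurred. The earlier list had them 220450 bp upstream and 40252, 185214 and 349002 bp downstream, and the later list 220515 bp upstream and 40208, 185227 and 348991 bp downstream. The greatest difference between the stages was 65 bp. All were shared with a neighbour: the upstream peak with Pdha2, which it approached to 32759 bp at E13.5, and the other 3 with Bmpr1b, a BMP receptor gene. The peak 349002 bp downstream was nearer to Bmpr1b, at 167698 bp. By the nearest TSS 2 of the 4 peaks went to Unc5c at each stage.

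Unc5d had 5 earlier and 6 later peaks, none within 100 kb of the TSS. At E13.5 they lay 324941 and 174547 bp upstream and 786864, 934709 and 966798 bp downstream. At E16.5 they lay 456849, 324872 and 174674 bp upstream and 184279, 934701 and 966814 bp downstream. Recurrence covered 4 sites, with differences of 69, 127, 8 and 16 bp from the most upstream to the most downstream. The peak at 786864 bp was in the E13.5 list only, and those at 456849 bp upstream and 184279 bp downstream were in the E16.5 list only. The 3 peaks downstream at E13.5 and the 2 most downstream at E16.5 were shared with Poteg, whose TSS is 1772 kb away, and 4 of these 5 lay nearer to Poteg.

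Where sites recurred, their distances differed by 8 to 127 bp, with a median of 28 bp over the 16 pairs. Over all 3383 recurring pairs of the lists the median was 38 bp, and 86.3% differed by at most 100 bp, against 15 of 16 here. The limit of 200 bp caps both sets, and it was reached over all pairs (200 bp) but not among the netrin genes (127 bp).

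Close to the start site the lists named partly different genes. Within 50 kb of the TSS, Dcc, Neo1, Unc5a, Unc5b and Unc5c had a peak at E13.5 (5 of 7 genes), against 10.8% of all protein-coding genes. At E16.5 Neo1, Unc5a, Unc5b and Unc5c had one (4 of 7), against 15.1%, and these 4 genes were among the 7.79% of all genes with one in both lists. Dcc was the gene near a peak at E13.5 only, as were 3.02% of all genes. A window of 10 kb held a peak of Dcc alone in the earlier list and of Neo1 and Unc5a in the later, 1 and 2 of 7 genes, against 6.62% and 11.2% of all genes. Within 1 kb no netrin gene had a peak at E13.5, where 4.93% of all genes did. At E16.5 Neo1 and Unc5a did (2 of 7), against 9.42%, and both belonged to the 6.02% of genes with a promoter peak at E16.5 only. The genes were chosen by name with earlier results of these data known, so these counts are descriptions, and with 7 genes each gene moves a share by 14.3 percentage points.

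**Figure D3:**
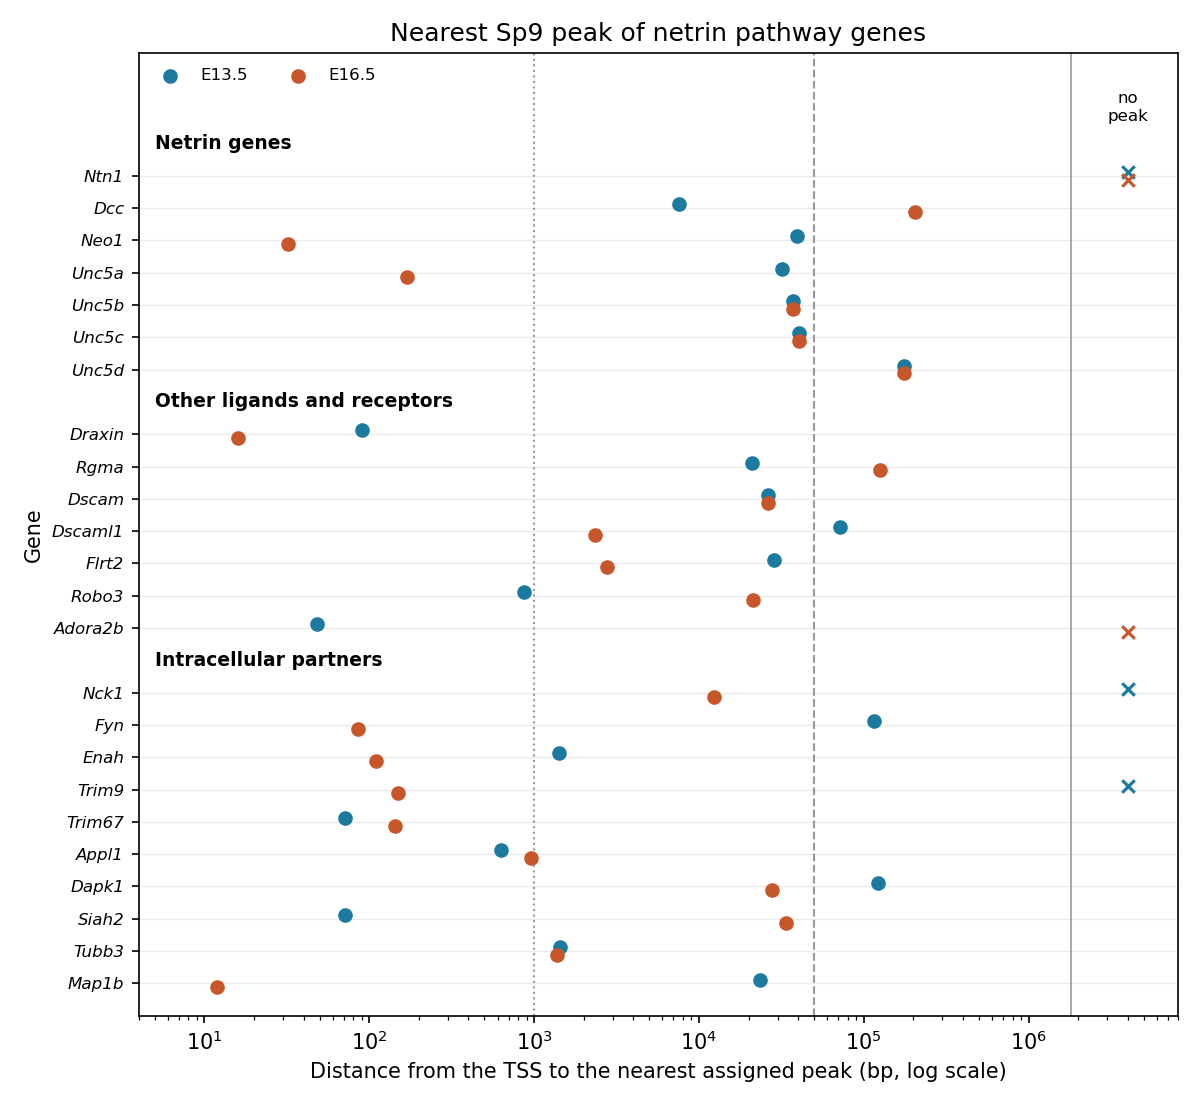
Distance in bp (log scale) from the TSS to the nearest assigned Sp9 peak in each list, for the 7 netrin genes and for the other pathway genes with a peak within 50 kb at either stage; crosses at the right mark genes without a peak, the dotted line 1 kb and the dashed line 50 kb. Neo1 and Unc5a lie at 32 and 169 bp at E16.5 and beyond 30 kb at E13.5, whereas Dcc lies at 7612 bp in the earlier list and 203512 bp in the later.

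Around these 7 genes, 18 further ligand, receptor and co-receptor genes were counted, not all of them of netrin-1 itself. Of these, 14 had an assigned peak in the earlier list and 12 in the later, against 20.7% and 23.6% of all protein-coding genes. Within 50 kb of the TSS it was 6 of 18 and 5 of 18, against 10.8% and 15.1%. Bmpr1b, a BMP receptor gene and not a netrin receptor gene, is counted among those with an assigned peak. It shared 3 of its 4 peaks in each list with Unc5c. Draxin, a secreted protein that binds both netrin-1 and DCC, had a promoter peak in both lists, 91 bp upstream in the earlier and 16 bp upstream in the later. It was the 1 gene among the 7 and these 18 with promoter peaks at each stage, which 3.4% of all genes had. Dscam, an adhesion molecule that binds netrin-1, had 5 peaks at each stage and all 5 recurred; the nearest lay 26193 bp downstream in the earlier list and 26202 bp in the later. Its relative Dscaml1 had 4 earlier peaks, the nearest at 72135 bp, and 7 later ones, of which the nearest were 2339 and 3183 bp downstream.

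Rgma, which encodes a repulsive ligand of neogenin, had 8 assigned peaks in the earlier list and 3 in the later. The E13.5 peaks within 50 kb, 21010 bp upstream and 24938 bp downstream, were not in the E16.5 list. Flrt2, whose product binds UNC-5 receptors, had 5 peaks at each stage. A peak 28383 bp upstream in the earlier list had a later neighbour at 28110 bp, slightly too far to count as recurring, and the later list also held a peak 2772 bp downstream. Robo3, a receptor that acts with DCC in commissural axons, had earlier peaks 21236 bp upstream and 871 bp downstream, of which the upstream site recurred at 21197 bp. Adora2b, an adenosine receptor gene proposed as a netrin partner, had an earlier peak 48 bp upstream and no later one. The ligand genes Ntn3, Ntn5 and Ntng2 had no assigned peak at either stage, as had Ntn1. Most protein-coding genes had none in a given list, as 20.7% had one in the earlier and 23.6% in the later. Apart from Ntn1, these ligand genes were named after their values were seen. Ntn4 had its peak 54152 bp downstream in the earlier list and 54164 bp in the later, and Ntng1 had a peak 634632 bp downstream in the earlier list and a different one 614156 bp downstream in the later.

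Of 28 genes for intracellular partners of these receptors, 17 had an assigned peak in the earlier list and 16 in the later, against 20.7% and 23.6% of all protein-coding genes. Within 50 kb it was 6 and 10 of 28, against 10.8% and 15.1%, and within 1 kb 3 and 6 of 28, against 4.93% and 9.42%. Like the ligand and receptor list, this list was chosen with earlier results of these data known, so its counts are descriptions. Trim67, a ubiquitin ligase gene of netrin-dependent axon branching, had promoter peaks 71 bp upstream (earlier) and 144 bp upstream (later). Appl1, an adaptor of DCC, had promoter peaks 631 bp downstream (earlier) and 958 bp downstream (later), too far apart to count as recurring. Fyn, a kinase that phosphorylates DCC, had a later peak 86 bp upstream with no earlier counterpart, beside a recurring site 114755 bp downstream. Trim9, the relative of Trim67 that binds DCC, had a later peak 149 bp downstream and no earlier one.

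Enah, an actin regulator, had its peak 1411 bp upstream in the earlier list and 110 bp upstream in the later. Map1b, a microtubule-associated protein gene, had a recurring site 23457 bp downstream, found at 23486 bp in the later list, which also held a peak 12 bp downstream. Tubb3, a neuronal tubulin gene, had its peak 1431 bp downstream in the earlier list and 1384 bp in the later. Siah2, a ubiquitin ligase gene of the family that degrades DCC, had its earlier peak 71 bp upstream and its later peak 33932 bp downstream. Nck1, an adaptor gene, had a later peak 12278 bp upstream and no earlier one. Dapk1, a death-associated kinase gene, had its earlier peak 122321 bp and its later peak 27928 bp upstream. Promoter peaks at E16.5 only were thus found at Fyn, Enah, Trim9 and Map1b among the partners and at Neo1 and Unc5a among the netrin genes, and at E13.5 only at Siah2, Robo3 and Adora2b. Over all protein-coding genes, promoter peaks at E16.5 only (6.02%) were also more frequent than at E13.5 only (1.53%).

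**Figure D4:**
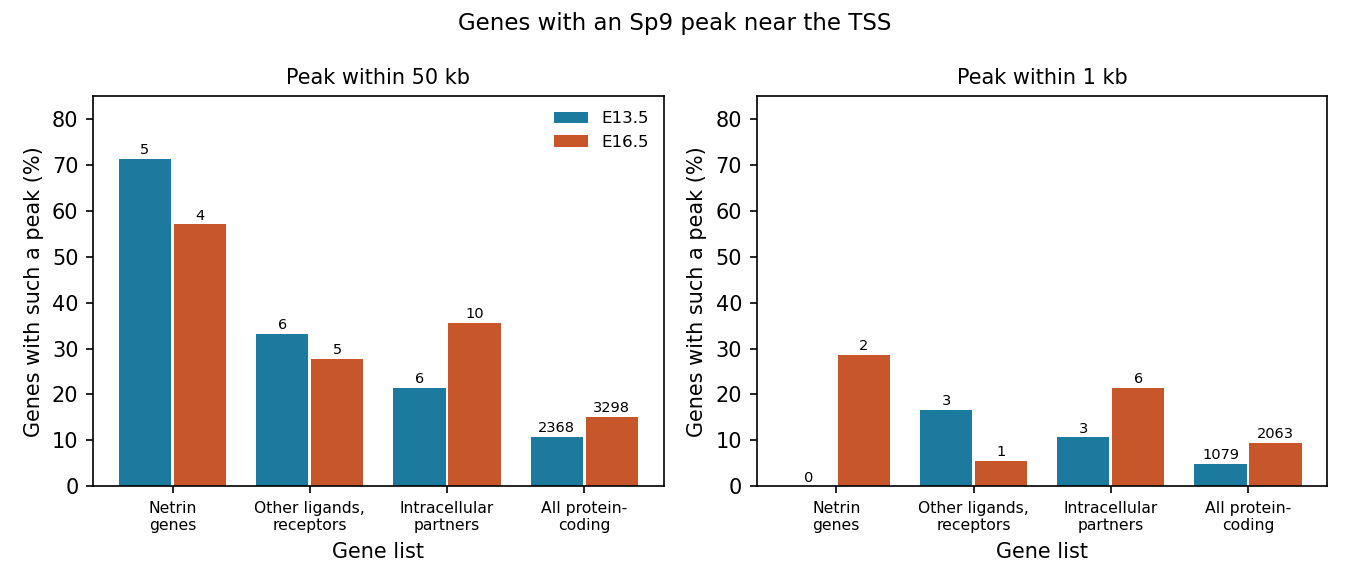
Percentage of genes (y axis) with an Sp9 peak within 50 kb (left) and within 1 kb (right) of the TSS in each list, for the 7 netrin genes, the 18 other ligands and receptors, the 28 intracellular partners and all 21900 protein-coding genes; numbers above the bars count genes. Within 50 kb the netrin genes stand at 5 and 4 of 7, and within 1 kb at 0 and 2 of 7.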

How the data were processed

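Sp9 ChIP and input libraries came from basal ganglia at E13.5 and E16.5, 1 of each per stage, per the labels. Tools listed in the submitters' processing notes are MACS2 (2.1.0), BWA (0.6.2), bcl2fastq (1.8.4) and CASAVA (1.8.2), with mm9 as the build; neither their roles nor a threshold for peaks are given in the sources used here. The authors assigned peaks to genes by regulatory domains of 5000 bp upstream and 1000 bp downstream of the TSS, extended up to 1000000 bp, with curated domains, per the file headers. The deposited values are text without a standard unit: peak numbers and signed TSS distances.

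Each numbered peak was counted once. Where a gene had a pair of rows, a peak in both kept its shorter distance, which touched none of the 7 genes. Names were matched to a mouse gene table (GRCm38.p6, used for names and gene type), 4698 of 4826 in the E13.5 list and 5330 of 5463 in the E16.5 list. Recurring peaks were paired one to one within a gene, closest first, and the pairing code was checked on simulated data. The simulated peaks stayed within 100 bp or moved far beyond the limit, so the check does not bear on offsets near 200 bp. Shares carry 95% Wilson intervals, which cover counting error only. RefSeq promoter sequences were used for 4 of the 7 genes. No test was run between stages or lists. The genes and lists were chosen with earlier results of these data known. Genes named outside the 7 were all genes of the pair of pathway lists with a peak within 50 kb at either stage, genes sharing a peak, and the 3 most like Dcc; Ntn3, Ntn4, Ntn5, Ntng1, Ntng2, Emx2, Cdh5 and Ptprc were added after their values were seen. Alternatives tried were other recurrence limits, windows, promoter widths, lettered entries and the nearest TSS. Python 3.11.15 and scipy 1.17.1 were used.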

Additional observations from a re-analysis of the deposited data

How the results depend on the processing

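Of 22 alternative values, 20 stayed within 1.5 times the reported one. The exceptions were the genes with a peak near the TSS: within 10 kb in place of 50 kb, 1 of the 7 genes had a peak at E13.5 (Dcc) and 2 at E16.5 (Neo1 and Unc5a). The narrower window holds fewer peaks by construction. Counting a peak only for its nearest TSS gave 21 earlier (E13.5) and 16 later (E16.5) peaks, against 28 and 22, with all 6 genes keeping at least 1. Recurring sites numbered 15, 16 and 18 at limits of 100, 500 and 1000 bp, against 16. No paired analysis was possible because each stage has 1 ChIP library and no test was run. Depth is unknown, so peaks missing from a list may lie below its threshold.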

Other observations

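The Dcc pairs at 315840 and 804878 bp downstream, whose E16.5 peaks lay 820 and 763 bp away, were 2 of the 28 E13.5 peaks of these genes (7.14%) that paired only when the limit was raised from 200 to 1000 bp. Over the whole E13.5 list, 152 of 5847 peaks (2.6%) did so. Both E16.5 peaks lay farther downstream than their E13.5 counterparts. The lists give no peak widths, so it could not be examined whether the intervals overlapped.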
